A study of Mus musculus with 48 samples.

Results

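The miR-297, miR-466, miR-467 and miR-669 families were examined in the brains of WT and Tg2576 mice. They were chosen by name, as every mouse miRNA on the array named miR-297, miR-466, miR-467 or miR-669, with any letter, copy or strand. This gave 61 members of the 1023 mouse miRNAs on the array: 4 of miR-297, 22 of miR-466, 12 of miR-467 and 23 of miR-669. WT mice were C57BL/6J. The transgene of Tg2576 mice is human amyloid precursor protein with the Swedish mutation, and its promoter is that of the prion protein gene of the hamster. Cortices and whole brains were taken from mice of both genotypes at 10 months of age, early in amyloid-beta accumulation, and at 17 months, when accumulation has reached its plateau. Each of the 8 groups of genotype, tissue and age had 3 miRNA arrays and 3 mRNA arrays. The labels do not say whether cortex and whole brain came from the same mice.

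Most hairpins of these families lie in a dense tandem cluster within an intron of Sfmbt2, a Polycomb group gene that is imprinted and expressed from the paternal allele in the placenta. The cluster is specific to rodents, and its miRNAs are known chiefly from trophoblast and embryonic stem cells. Many members consist of alternating U and G, or of alternating A and C on the opposite strand of the hairpin. A miRNA selects its targets mainly through its seed, which is bases 2 to 8 from the 5′ end.

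Mature sequences from RefSeq were matched to 6 of the 61 members, none of which has a hairpin within Sfmbt2. They are shown for their own repeat character and seeds, and do not stand for the members encoded in the cluster. Capitals mark the seed. Coordinates are those of build GRCm38.p6.
miR-466i-3p: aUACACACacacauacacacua
miR-467f: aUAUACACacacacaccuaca
miR-467g: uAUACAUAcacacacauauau
miR-669n: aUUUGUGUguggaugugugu
miR-466k: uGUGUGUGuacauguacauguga
miR-466j: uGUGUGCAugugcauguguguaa
miR-466i-3p lies at chr13:17747552-17747573 on the plus strand and miR-467f at chr11:69635419-69635439 on the minus strand. miR-467g lies at chr5:34732872-34732892 on the minus strand. miR-669n and miR-466k lie on the plus strand at chr3:115979905-115979924 and chr3:85467396-85467418, and miR-466j on the plus strand at chr10:60960802-60960824. The 6 seeds were all different, and no other mature miRNA of the 1738 with a sequence had any of them. The other 55 members had no sequence there, so that whether they share these seeds could not be checked. The first 3 sequences were rich in A and C, with alternating runs of 11, 12 and 9 bases. The last 3 were rich in U and G, with alternating runs of 8, 9 and 7 bases.

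The families are not one locus. Of 81 hairpin genes with these numbers in the RefSeq annotation, 71 lay within Sfmbt2 on chromosome 2 and 10 lay elsewhere. By number and letter, 49 members had all their hairpins within Sfmbt2, 4 had some of them there, and 1, miR-466a-5p, matched no hairpin name. The remaining 7 had none there: miR-466i-5p and miR-466i-3p, both of 1 hairpin on chromosome 13, and miR-466j, miR-466k, miR-467f, miR-467g and miR-669n. The name of the Sfmbt2 cluster therefore covers most members but not these 7.

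Few members were measurable in these brains. A member was taken as detected on an array if more than 50% of the spots of at least 1 of its probes were well above background. By this measure 14 of the 61 members (23%) were detected on at least 1 of the 24 miRNA arrays, against 374 of the other 962 mouse miRNAs (38.9%). Only miR-466i-5p was detected on all 24 arrays, which is 1.64% of the members against 23.7% of the other mouse miRNAs. The remaining 47 members were detected on none. By the scanner software's own mark of a detected miRNA, 16 members passed on at least 1 array and 4 on all 24. These 4 were miR-466i-5p, miR-467b, miR-467f and miR-669n, and the 2 members that only this mark added were miR-467a and miR-467d*, each on 2 arrays.

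Detection was spread over the families. It was found for 1 of 4 miR-297 members, 5 of 22 miR-466 members, 4 of 12 miR-467 members and 4 of 23 miR-669 members. Of the members named for the 3′ arm or marked with a star, 7 of 27 were detected, against 1 of 15 named for the 5′ arm and 6 of 19 with no arm in the name. The 1 detected among those named for the 5′ arm was miR-466i-5p. The other names do not tell the arm, so that these counts follow the names and do not compare the arms. Of the 49 members with all hairpins within Sfmbt2, 9 were detected on at least 1 array and none on all 24. Of the 7 with none there, 4 were detected, namely miR-466i-5p on 24 arrays, miR-467f on 22, miR-669n on 13 and miR-466i-3p on 10. These shares are given as counts, without a test.

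**Figure D1:**
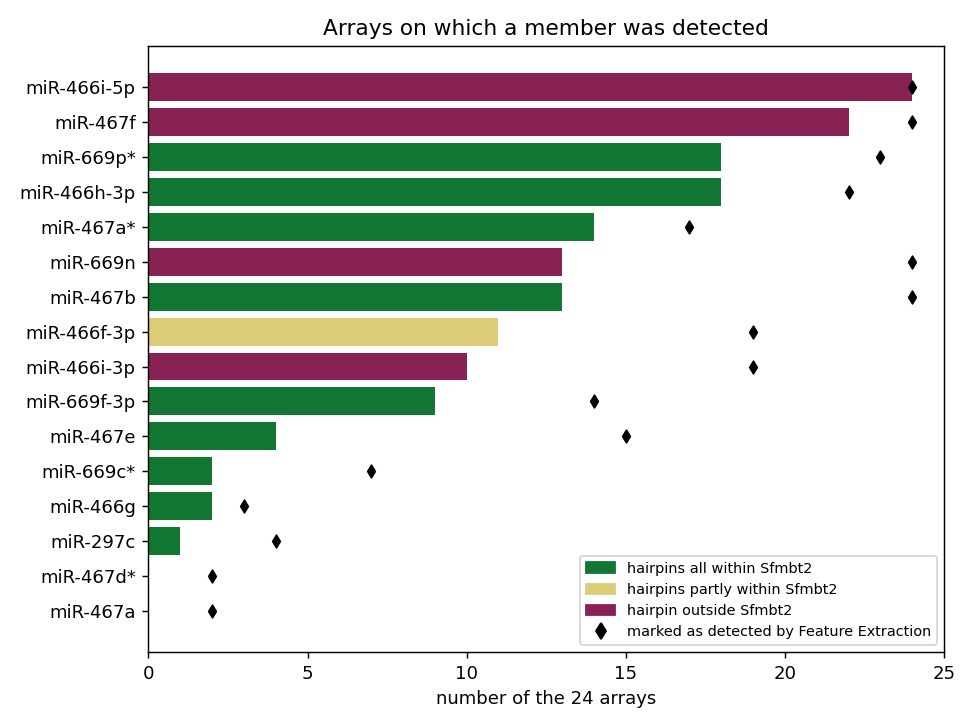
Bars give the number of the 24 miRNA arrays on which each member was detected, coloured by whether its hairpins lie within Sfmbt2, and diamonds give the number on which the scanner software marked it as detected. The 16 members with either are shown, and miR-466i-5p is the only one whose bar reaches 24.

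Between these ends stood 13 members detected on 1 to 22 arrays. miR-466h-3p and miR-669p*, both encoded within Sfmbt2, were each detected on 18 arrays. miR-467a*, whose 10 hairpin copies all lie within Sfmbt2, was detected on 14 and miR-467b on 13. miR-466f-3p was detected on 11 arrays and miR-669f-3p on 9. miR-467e was detected on 4 arrays, miR-466g and miR-669c* on 2 each, and miR-297c on 1. Probes of a member did not always give the same answer: of the 2 probes of miR-467f, 1 was well above background on 22 arrays and the other on 5.

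The number of members detected differed between arrays and moved with the brightness of the array. At 10 months, 9, 10 and 10 members were detected in WT cortices and 4, 6 and 8 in Tg2576 cortices. At 17 months the cortices gave 1, 2 and 2 members in WT mice and 1, 2 and 4 in Tg2576 mice. Whole brains at 10 months gave 7, 7 and 9 members in WT mice and 2, 13 and 14 in Tg2576 mice. At 17 months they gave 4, 11 and 11 in WT and 4, 10 and 10 in Tg2576 mice. The 75th percentile of intensity over the 402 probes well above background on every array was 682 to 852 in the 10-month-old WT cortices and 351 to 426 in the 17-month-old WT cortices. In the Tg2576 cortices it was 534 to 703 at 10 months and 482 to 598 at 17 months. In the 10-month-old Tg2576 whole brains it was 494 on the array with 2 members detected and 1532 and 1604 on those with 13 and 14. All mouse miRNAs moved likewise, from 239 detected on the array with the fewest to 382 on that with the most. The part of brightness in these counts was not tested.

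**Figure D2:**
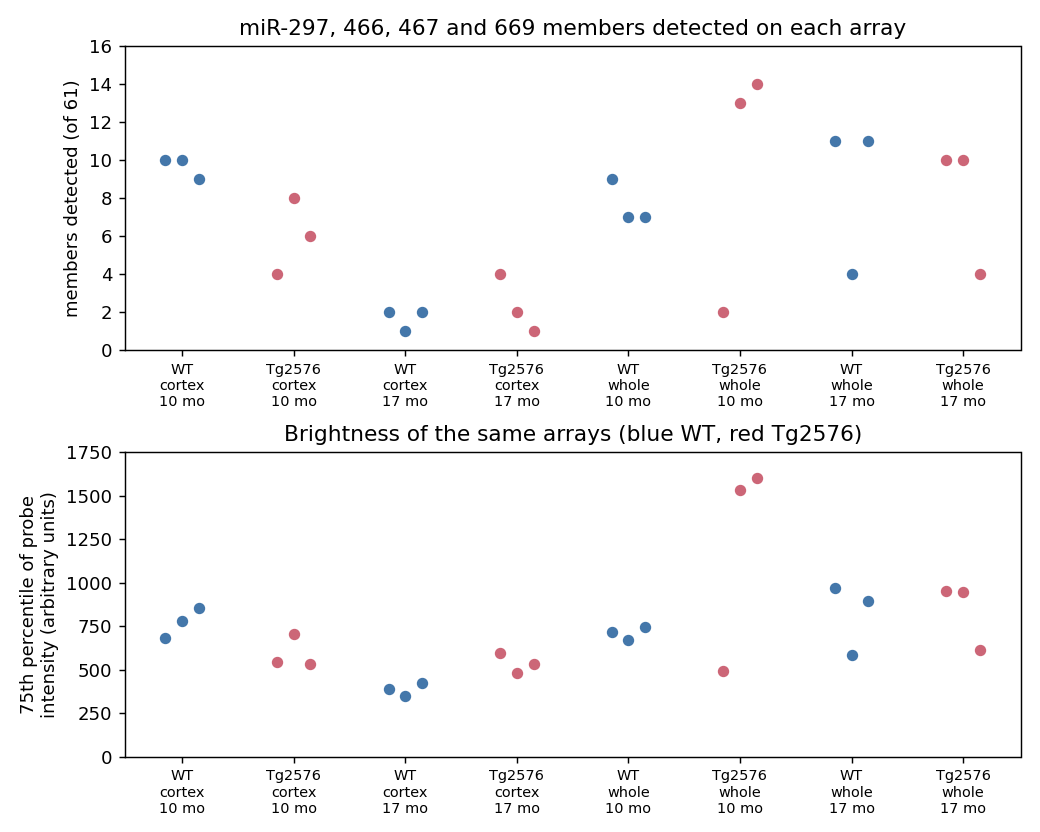
Each point is 1 array; the upper panel gives the members detected of 61 and the lower panel the 75th percentile of probe intensity, in arbitrary units. The 17-month-old cortices, with 1 to 4 members detected, have percentiles of 351 to 598, and the arrays with 13 and 14 members have percentiles of 1532 and 1604.

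Some members passed from every array of a group to none of another. From 10 to 17 months in WT cortices, miR-466f-3p, miR-466h-3p, miR-466i-3p, miR-467a*, miR-467b, miR-669n and miR-669p* were each detected on 3 of 3 arrays at 10 months and 0 of 3 at 17 months. These were 7 of the 9 members on all 3 arrays at 10 months. The same was found for 40 of the 296 mouse miRNAs on all 3 arrays (13.5%). miR-466h-3p and miR-669p* were also detected on 3 of 3 whole brains and 0 of 3 cortices of 17-month-old WT mice (8.39% of 274 mouse miRNAs). miR-466i-3p was detected on 3 of 3 WT and 0 of 3 Tg2576 cortices at 10 months (1.69% of 296). In each of these 10 cases the brighter mean, averaged over probes, did not exceed the limit set by the lowest reliable signal on the dimmer arrays, so that no fold is given. For miR-467b and miR-669n the mean log2 levels in WT cortices were -5.58 and -5.62 at 17 months and -5.67 for both at 10 months. At 10 months every value stood at the floor of -5.67 that is described below. At 17 months only replicate 2 rose above this floor, at -5.42 and -5.54, under the lowest reliable signal of -4.61 on that array. These means therefore give no direction.

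Levels below are on a log2 scale: a member's probes were averaged and scaled to the 75th percentile of intensity named above, which thus lies at 0. A common floor of -5.67, the median over arrays of the dimmest reliable signal, replaced all smaller values, and values at the floor have no order. On every array 54 of the 61 members stood at the floor, and 7 rose above it on at least 1 array. These were miR-466i-5p on 24 arrays, miR-467f on 22, miR-466h-3p on 20, miR-669p* on 19, miR-467b on 5, and miR-467a* and miR-669n on 1 each.

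miR-466i-5p, the 5′ arm of the hairpin on chromosome 13, lay between -4.02 and -3.11 on the 24 arrays, with a median of -3.49. Its levels in WT cortices were -3.28, -3.68 and -3.42 at 10 months and -3.43, -3.45 and -3.46 at 17 months. In Tg2576 cortices they were -3.56, -3.68 and -3.46 at 10 months and -3.53, -3.55 and -3.90 at 17 months. In the cortex the groups overlapped at 10 months, while at 17 months every Tg2576 array was lower than every WT array, as was the case without regard to direction for 23% of all miRNAs tested. In WT whole brains the levels were -3.40, -3.51 and -3.66 at 10 months and -3.96, -3.26 and -3.83 at 17 months. In Tg2576 whole brains they were -3.34, -3.80 and -4.02 at 10 months and -3.46, -3.33 and -3.11 at 17 months. The widest spread was in 17-month-old WT whole brains, at -3.68 ± 0.37 (SD, n = 3), and the narrowest in 17-month-old WT cortices, at -3.45 ± 0.02 (SD, n = 3).

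miR-467f, an A- and C-rich miRNA from chromosome 11 whose sequence is given above, stood close to the floor. Its levels in WT cortices were -4.91, -4.90 and -5.48 at 10 months and -5.35, -5.67 and -5.11 at 17 months. In Tg2576 cortices they were -5.13, -5.43 and -5.04 at 10 months and -5.52, -5.52 and -5.67 at 17 months. Every Tg2576 cortex at 17 months was thus lower than every one at 10 months, in a comparison in which 34.4% of all miRNAs tested did not overlap. In WT whole brains miR-467f stood at -5.05, -5.04 and -5.34 at 10 months and at -5.39, -5.36 and -5.42 at 17 months, again without overlap between the ages (15.7% of all miRNAs tested). In Tg2576 whole brains it stood at -5.02, -5.21 and -5.27 at 10 months and at -4.997, -5.27 and -5.15 at 17 months.

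miR-466h-3p, from the Sfmbt2 intron, lay between the floor and -5.04. It stood at the floor on all 3 arrays of 17-month-old Tg2576 cortices and on 1 of 17-month-old WT cortices. The 10-month-old WT cortices had -5.04, -5.04 and -5.41, and the 17-month-old Tg2576 whole brains -5.21, -5.41 and -5.45. miR-669p* is also encoded in the Sfmbt2 intron. It stood at the floor in all 3 cortices of 17-month-old Tg2576 mice, at -5.05, -5.08 and the floor in 10-month-old WT cortices, and at -5.13, -5.44 and -5.25 in 17-month-old Tg2576 whole brains.

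**Figure D3:**
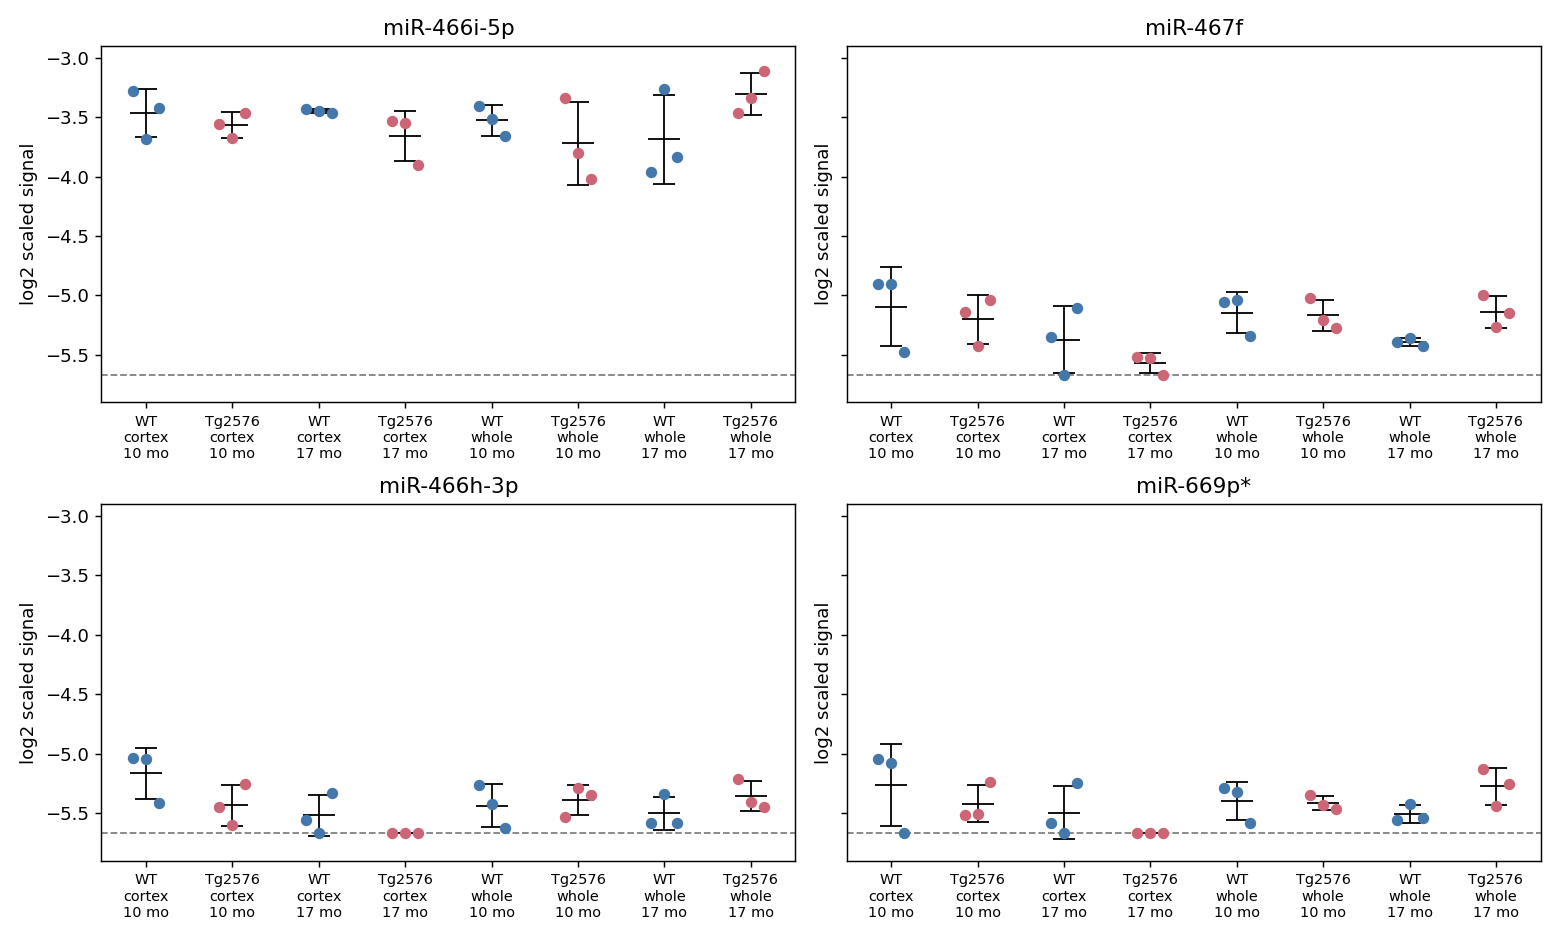
Log2 scaled signal of 4 members on each of the 24 miRNA arrays (points, blue WT and red Tg2576), with the mean and SD of each group of 3 (bars) and the floor of -5.67 (dashed line). miR-466i-5p lies between -4.02 and -3.11, and the other 3 reach the floor on some arrays, among them all 3 Tg2576 cortices at 17 months for miR-466h-3p and miR-669p*.

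The dissection labels were checked on the mRNA arrays with marker lists, whose summed log2 level is relative to the 75th percentile of the array. The 10 markers of cortex, all with a probe and detected on some array, summed to 6.00 to 6.24 in 10-month-old WT cortices and 5.64 to 5.87 in the whole brains. In the other 3 comparisons of the tissues the list overlapped. It summed to 5.77 to 6.50 in cortex and 6.04 to 6.23 in whole brain of 17-month-old WT mice, to 5.65 to 6.07 and 5.76 to 6.10 in 10-month-old Tg2576 mice, and to 5.91 to 6.27 and 6.17 to 6.46 in 17-month-old Tg2576 mice. In 17-month-old Tg2576 mice, 0 of 10 cortical and 0 of 9 tested cerebellar markers were called between the tissues by limma (1.97% of 38574 mRNA probes were), with 1 and 0 under an unadjusted p of 0.05. The 10 cerebellar markers there summed to 7.22 to 7.39 in cortex and 7.18 to 7.40 in whole brain, sums in which Pcp4 and Itpr1, high on every array, weigh most.

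Single markers set some arrays apart. Gabra6, of cerebellar granule cells, had 0.16 on replicate 2 of the 17-month-old WT cortices and -7.40 and -6.53 on the other two. Pcp2, of Purkinje cells, had 3.17 on that array and -0.66 and -0.82 on the other two, so that for both genes it lay within the range of the 17-month-old WT whole brains. Gabra6 had -3.94, -7.10 and -2.04 in 17-month-old Tg2576 whole brains and -8.01, -7.65 and -5.10 in the cortices, so that replicate 2 of these whole brains lay among the cortices. In 10-month-old Tg2576 mice Gabra6 overlapped between the tissues, with -3.88, -5.92 and 1.68 in whole brains and -3.26, -6.48 and -5.11 in cortices. The labels do not tie these mRNA arrays to the RNA of the miRNA arrays with the same number. Without the miRNA array of replicate 2 of the 17-month-old WT cortices no member was called in any comparison that uses it, as with it. The 10 olfactory bulb markers summed to 3.46 to 5.18 in 10-month-old Tg2576 cortices and 2.33 to 3.36 in WT ones. Of 8 choroid plexus markers, 8 were higher in Tg2576 than WT cortices at 17 months (median difference 1.07). Of 10 cerebellar markers, 1 was higher in Tg2576 than WT whole brains at 17 months (median -1.08). Of 4 blood markers tested, 0 were higher at 17 than at 10 months in WT cortices (median -1.18). No marker was called by limma in these comparisons of its list (0%, 0% and 4.56% of all probes were). The part of tissue composition in the miRNA values was not tested. The mouse App probe differed between Tg2576 and WT mice by -0.02 in the cortex at either age and in whole brain at 17 months, and by 0.25 in whole brain at 10 months (limma adjusted p = 0.431). Whether it reads the human transgene is not given in the sources used here, so that it does not check the genotype labels.

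Tg2576 and WT mice were compared first, within each tissue and age. Tested members had detection on 2 or more arrays of either group compared and at least 1 value above the floor, which left 2 to 7 members per comparison. No member passed an adjusted p of 0.05 by limma with Benjamini-Hochberg adjustment over all miRNAs tested: 0 of 5 in the cortex at 10 months, 0 of 2 in the cortex at 17 months, and 0 of 5 in whole brain at either age. No other miRNA passed in these 4 comparisons either (0% of 265, 244, 269 and 271 tested). At an unadjusted p under 0.05 the members numbered 0, 0, 0 and 1, against 7.55%, 15.2%, 6.69% and 6.27% of all miRNAs tested. The methods' t-test with the same adjustment also called none of the members.

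The member with the small unadjusted p was miR-467f in whole brain at 17 months. It was higher in Tg2576 mice by 0.25 on the log2 scale (SE 0.08, 95% interval 0.06 to 0.45), without overlap between the genotypes, and its limma adjusted p was 0.623. Across all miRNAs tested in that comparison, 11.8% did not overlap. For miR-466i-5p the difference of Tg2576 from WT mice was -0.10 (95% interval -0.40 to 0.19) in the cortex at 10 months and -0.21 (-0.48 to 0.05) at 17 months. In whole brain it was -0.19 (-0.65 to 0.26) at 10 months and 0.38 (-0.11 to 0.87) at 17 months. The intervals all include 0. The median difference over the members tested was -0.11, -0.20, -0.02 and 0.23 in the 4 comparisons, in the order cortex at 10 and 17 months and whole brain at 10 and 17 months. Over all miRNAs tested it was 0.02, -0.01, 0.02 and 0.07.

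An interaction of genotype and age, taken as the Tg2576 minus WT difference at 10 months less that at 17 months, passed the test for no member. It was tested for 7 members in the cortex and 5 in whole brain, with no call among 273 miRNAs in either (0%). At an unadjusted p under 0.05 no member was found, against 11% of all miRNAs tested in the cortex and 3.3% in whole brain. miR-466i-5p gave 0.11 (SE 0.17) in the cortex and -0.57 (SE 0.29) in whole brain, with limma adjusted p of 0.761 and 0.966.

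Age was compared next, as 17 against 10 months. No member passed the adjusted threshold in WT cortices (0 of 7 tested, against 0% of 268 miRNAs), WT whole brains (0 of 5, against 0.373% of 268), Tg2576 cortices (0 of 4, against 10% of 259) or Tg2576 whole brains (0 of 5, against 0% of 271). The members under an unadjusted p of 0.05 numbered 1, 1, 3 and 0, against 6.72%, 12.7%, 29.3% and 6.64% of all miRNAs tested. By the methods' t-test with adjustment no member was called in any of the 4.

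In Tg2576 cortices all 4 members tested had lower values at 17 months, though with scaling over all probes miR-466i-5p and miR-669p* turned to 0.36 and 0.017, and with normexp background correction all 4 turned, to between 0.068 and 0.10. The median difference was -0.24, against 0.0015 over all 259 miRNAs. miR-467f differed by -0.37 (SE 0.11, limma adjusted p = 0.0881). miR-669p* and miR-466h-3p were detected on 3 of 3 arrays at 10 months and on 1 of 3 at 17 months, where all 3 values were at the floor. They entered the test through the 10-month-old group only, and the size of their differences, -0.24 and -0.23, is set by the floor (limma adjusted p of 0.121 and 0.168). The median over the 4 members rests on these differences, so that it and the count of lower members only describe the values. With scaling over all probes the median over all miRNAs in this comparison was 0.44, and 120 of 269 were called, all of them higher at 17 months, against 5 higher of 26 in the main setting. All 3 arrays of the 10-month-old Tg2576 cortices were on slide 1 and all 3 of the 17-month-old ones on slide 2, so that age and slide cannot be told apart here. For miR-466h-3p in WT cortices, detected on none at 17 months, the measured means were -5.52 at 17 and -5.16 at 10 months, with a limma adjusted p of 0.677 and no fold given. miR-467f differed by -0.25 (SE 0.10) in WT whole brains, with a limma adjusted p of 0.367. No slide held WT whole brains of both ages, so that age and slide cannot be told apart there either. miR-466i-5p differed with age by 0.01 in WT cortices, -0.16 in WT whole brains, -0.09 in Tg2576 cortices and 0.42 in Tg2576 whole brains, and none of these passed (limma adjusted p of 0.643 to 0.981).

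Cortex was then compared with whole brain. In 17-month-old Tg2576 mice, all 4 members tested had lower values in the cortex and 3 of them were called, but all 4 turned with scaling over all probes and with normexp. Of all 268 miRNAs tested, 34 (12.7%) were called and 31 of them (11.6%) were lower in the cortex. miR-467f was lower by 0.43 on the log2 scale (difference -0.43, SE 0.08, 95% interval -0.64 to -0.22, limma adjusted p = 0.0361), which is a fold of 0.740. miR-669p* and miR-466h-3p were detected on 3 of 3 whole brains and 1 of 3 cortices, and stood at the floor on all 3 cortex arrays. They entered the test through the whole brains only, and the size of their differences, -0.39 and -0.31, is set by the floor (limma adjusted p of 0.0429 and 0.0479). miR-466i-5p, the fourth, had a difference of -0.36 (SE 0.14, limma adjusted p = 0.168). All 4 were under an unadjusted p of 0.05, against 28.7% of all miRNAs tested, and none of the 4 overlapped between the tissues, against 34.7%. The median difference was -0.37 over the members and -0.08 over all miRNAs. With members that entered through the brighter group, these counts and the median only describe the values.

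These 3 calls rest on values at or near the floor. miR-467f was detected on 2 of the 3 cortex arrays. With a floor 4 times lower the members called were miR-467a*, miR-669f-3p and miR-669p*, so that miR-467f and miR-466h-3p were no longer called. The calls were lost (0 of the members called) with quantile normalization, with the replicate number as a block and by the methods' t-test, and with scaling over all probes the 3 differences turned to 0.10, 0.11 and 0.033 for miR-467f, miR-669p* and miR-466h-3p. That scaling moved the median over all miRNAs from -0.08 to 0.59 and called 209 of 281, of which 206 were higher in cortex. Leaving out any 1 of the 6 arrays left 0 or 1 member called, with miR-669p* called without replicate 2 of the whole brains and miR-466h-3p without replicate 3. All 3 cortex arrays were on slide 2 and all 3 whole-brain arrays on slide 3, so that tissue and slide cannot be told apart.

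In the other 3 comparisons of the tissues no member was called: 0 of 6 in 10-month-old WT mice (3.73% of 268 miRNAs called), 0 of 6 in 17-month-old WT mice (3.3% of 273) and 0 of 5 in 10-month-old Tg2576 mice (0.373% of 268). No member reached an unadjusted p of 0.05 in them, against 19.4%, 18.3% and 11.6% of all miRNAs tested, and the methods' t-test with adjustment called none. For miR-466i-5p the difference of cortex from whole brain was 0.06 (95% interval -0.24 to 0.37), 0.24 (-0.20 to 0.67) and 0.15 (-0.30 to 0.61). The medians over members were 0.06, 0.03 and -0.01. In none of these comparisons did a slide hold arrays of both tissues, so that tissue and slide cannot be told apart in them either.

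A pair of miRNAs that also hold alternating U and G, but have genes outside these families, was set beside them. Their RefSeq sequences, again with the seed in capitals, show alternating runs of 13 and 11 bases.
miR-574-5p: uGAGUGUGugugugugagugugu
miR-1187: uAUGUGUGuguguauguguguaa
They lie at chr5:64970328-64970350 on the plus strand and chr5:82798964-82798986 on the minus strand of GRCm38.p6. miR-574-5p was detected on 21 arrays and miR-1187 on 9. Neither passed the adjusted threshold in any comparison in which it was tested. miR-1187 met the filter between genotypes only in whole brain at 17 months, so that it was not tested between genotypes in the cortex. At 10 months it was detected on 3 of 3 WT and 0 of 3 Tg2576 cortices (1.69% of 296 mouse miRNAs), with every value at the floor. At 17 months it was detected on 0 of 3 cortices of either genotype. The paper names miR-1187 as the only miRNA with a significant decrease between the genotypes in these 17-month-old cortices. In 17-month-old Tg2576 mice miR-574-5p differed between cortex and whole brain by -0.42 (SE 0.17, limma adjusted p = 0.172), and in whole brain at 17 months between Tg2576 and WT mice by 0.44 (SE 0.20, limma adjusted p = 0.637). miR-466i-5p, for which no sequence was available, had differences of -0.36 and 0.38 in the same comparisons.

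The host gene was detected where most of the miRNAs within it were not. The 1 probe for Sfmbt2 on the mRNA array was well above background on all 24 arrays. Its log2 intensity relative to the 75th percentile of the array was -2.14, -2.14 and -2.42 in 10-month-old WT cortices and -2.42, -3.07 and -2.48 at 17 months. Tg2576 cortices had -2.29, -2.33 and -2.43 at 10 months and -2.37, -2.25 and -2.57 at 17 months. The lowest of the 24 was a 17-month-old WT cortex. WT whole brains had -2.07, -2.05 and -1.94 at 10 months and -1.92, -2.12 and -2.08 at 17 months, and Tg2576 whole brains had -2.19, -1.80 and -1.69 at 10 months and -2.12, -2.08 and -2.37 at 17 months.

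Sfmbt2 passed the adjusted threshold in none of the 12 comparisons by limma, nor by the methods' t-test. Its mean was lower in cortex than in whole brain in each of the 4 comparisons of the tissues. The differences were -0.21 and -0.62 in WT mice at 10 and 17 months and -0.46 and -0.20 in Tg2576 mice, with limma adjusted p of 0.268, 0.0844, 0.146 and 0.394. The comparisons of the tissues in 17-month-old WT mice and in 10-month-old Tg2576 mice were the only ones of the 12 under an unadjusted p of 0.05. Without replicate 1 of the 10-month-old Tg2576 whole brains the latter was -0.61, with a limma adjusted p of 0.0323. Between genotypes Sfmbt2 differed by -0.12 and 0.26 in the cortex at 10 and 17 months and by 0.13 and -0.15 in whole brain, with limma adjusted p of 0.54 to 0.706. The 0.26 became 0.055 without replicate 2 of the 17-month-old WT cortices, which also moved the difference between tissues in 17-month-old WT mice to -0.41 and that with age in WT cortices to -0.22. The -0.12 became -0.21 without replicate 3 of the 10-month-old WT cortices and -0.073 to -0.079 without replicate 1 or 2 of these or replicate 3 of the Tg2576 ones. In whole brain the 0.13 became 0.28, 0.087 and 0.032 without replicates 1, 2 and 3 of the 10-month-old Tg2576 mice. The -0.15 became -0.063 without replicate 3 of the 17-month-old Tg2576 mice and -0.093 without replicate 1 of the WT ones.

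**Figure D4:**
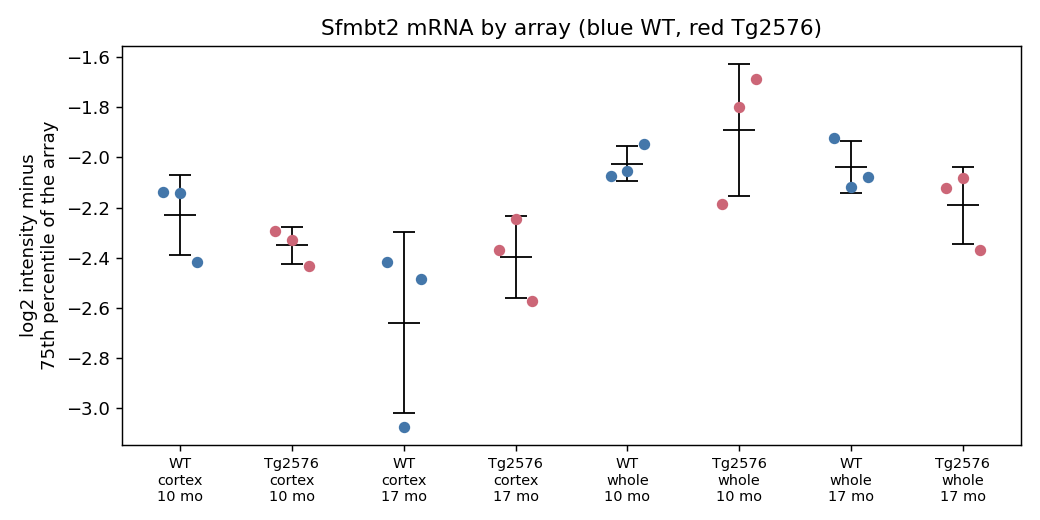
Log2 intensity of the Sfmbt2 probe minus the 75th percentile of its array on each of the 24 mRNA arrays (points, blue WT and red Tg2576), with the mean and SD of each group of 3. Group means lie between -2.66 in 17-month-old WT cortices and -1.89 in 10-month-old Tg2576 whole brains.

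The genes that make and use miRNAs were measured on the same mRNA arrays, from a list of 14: the nuclear processor Drosha and its partner Dgcr8, the exporter Xpo5 with Ran, the cytoplasmic processor Dicer1 with Tarbp2 and Prkra, and the Argonaute and Tnrc6 effectors. All 14 were tested in each comparison. None passed between the genotypes, where 0% of the mRNA probes passed in any of the 4 comparisons by limma, and 1, 0, 0 and 0 of the list were under an unadjusted p of 0.05. Between the ages, 5 of 14 passed in WT whole brains (27.8% of all probes), 1 in WT cortices (4.56%), 1 in Tg2576 cortices (10.3%) and 2 in Tg2576 whole brains (12.1%). The largest differences were 0.74 for Ago2 in Tg2576 whole brains (SE 0.12, limma adjusted p = 0.0202), -0.77 for Ago3 in WT whole brains (SE 0.08, limma adjusted p = 0.00474), and 0.58 for Ago2 in Tg2576 cortices (SE 0.09, limma adjusted p = 0.025). Ago2 encodes the Argonaute that can cleave a paired target. Between the tissues, 0 of the 14 passed in 10-month-old WT mice (0.0101% of all probes), 2 in 17-month-old WT mice (10.3%) and 0 in 10-month-old Tg2576 mice (0%). In 17-month-old Tg2576 mice, where 3 members were called, 0 of the 14 passed (1.97%). Under an unadjusted p of 0.05 by limma these 4 comparisons held 4, 7, 2 and 4 of the list.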

How the data were processed

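Total RNA was hybridized to Agilent 1-colour arrays, 24 for miRNA and 24 for mRNA. The submitters' notes name Agilent Feature Extraction 10.7.3.1. For each spot the authors deposited a background-subtracted intensity with no scaling between arrays, besides raw median intensities and quality marks. They also deposited a table of log2 values, used here as an alternative for miRNAs only. Outlier spots were left out and spots averaged per probe (2780 miRNA probes) and probes per miRNA. Each value was divided by the array's 75th percentile over 402 probes, set to the floor and taken to log2. mRNA values were log2 intensity minus the array's 75th percentile, with symbols by RefSeq transcript and, for a gene with several probes, the highest mean. limma 3.58.1 in R 4.3.3 was run on the 6 arrays of each comparison (12 for the change with age), adjusted over all features tested, after checks on simulated data. The p-values measure the spread between 3 arrays per group, and that number limits the precision.

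Members named are those detected on all 24 arrays, those past the adjusted threshold, the 6 nearest to detection on 12 arrays, and those passing from every array of a group to none of another; other members named by a small count of arrays, by place or by sequence were chosen after their values were seen. The members and all lists were chosen with earlier results of these data known. The replicate number was not used as a pairing. Alternatives were other scalings and floors, the brightest probe, normexp (offset 50), no filter, all 24 arrays in one model, a block by replicate number or by slide, an unpaired t-test as in the methods, and omission of single arrays.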

Additional observations from a re-analysis of the deposited data

How the results depend on the processing

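Of all counts, the 3 members called between cortex and whole brain in 17-month-old Tg2576 mice changed under the most alternatives. The count was 0 with quantile normalization, scaling over all probes, normexp, a floor 2 times higher, all 24 arrays in one model and the methods' t-test, 1 with the authors' log2 values (miR-467a*, none of the 3) or the brightest probe (miR-466h-3p), and 0 to 1 when 1 array was left out. With a floor 4 times lower it was 3, of which miR-669p* alone was among the 3. With the replicate number as a block it was 0 (13 of all miRNAs called, against 34), and the replicate block changed no other count of members. Deviations of same-numbered arrays from their group means correlated at 0.056, 0.54 and 0.46 there, and in no comparison were all 3 correlations over 0.1. Over all alternatives the count over all miRNAs ran from 0 to 209 there, from 1 to 120 with age in Tg2576 cortices (26 in the main setting) and from 0 to 161 between genotypes in the cortex at 17 months (0 in the main setting). With scaling over all probes the differences were 0.33 for miR-466i-5p, 0.10 for miR-467f, 0.033 for miR-466h-3p and 0.11 for miR-669p*, and with normexp 0.11, 0.24, 0.21 and 0.23.

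Normexp called 10 members with age in WT cortices, 11 between tissues in 17-month-old WT mice and 10 for the change with age in the cortex, where the main setting called 0. It also moved the median over all miRNAs there, to 0.43, 0.45 and 0.39, and called 208, 226 and 170 of them. The authors' log2 values called 2 members in WT cortices with age, 1 in Tg2576 cortices with age, 2 between the tissues in 10-month-old WT mice and 1 in 17-month-old WT mice. A floor 4 times lower called 1 member in each of 5 comparisons: between genotypes in the cortex at 10 months, with age in WT and in Tg2576 cortices, between tissues in 10-month-old WT mice, and for the change with age in the cortex. Leaving out 1 array called 0 to 1 member with age in Tg2576 cortices (1, miR-467f, without replicate 2 of the 10-month-old group) and 0 to 1 between tissues in 17-month-old WT mice (1, miR-466i-5p, without replicate 2 of the whole brains).

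Signs turned as follows. For miR-466i-5p, normexp gave 0.13 between genotypes in the cortex at 10 months, 0.069 with age in Tg2576 cortices and -0.034 between tissues in 10-month-old WT mice. Scaling over all probes gave 0.28 between genotypes in the cortex at 17 months, -0.032 and 0.36 with age in WT and Tg2576 cortices and -0.40 for the change with age. The slide as a block gave 0.19 between genotypes in whole brain at 10 months, quantile normalization -0.021 with age in WT cortices, and the authors' log2 values -0.046 and 0.060 with age in WT and Tg2576 cortices and -0.11 for the change with age. Leaving out 1 array gave -0.096 to 0.10 with age in WT cortices, -0.16 to 0.027 in Tg2576 cortices, -0.026 to 0.17 between tissues in 10-month-old WT mice and -0.013 to 0.20 for the change with age. For the others, normexp gave 0.62 for miR-466h-3p in WT cortices with age, and in Tg2576 cortices with age 0.080 for miR-467f, 0.068 for miR-466h-3p and 0.10 for miR-669p*, for which scaling over all probes gave 0.017. Sfmbt2 mRNA turned to 0.034 with age in WT whole brains and 0.011 in Tg2576 cortices with quantile normalization. Leaving out 1 array gave -0.074 to 0.025 and -0.12 to 0.043 in these, and -0.61 to -0.36 between tissues in 10-month-old Tg2576 mice.

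The slide could not be fitted as a block with age in Tg2576 cortices or between tissues in 17-month-old Tg2576 mice, and the methods' t-test has no form for the change with age. In all other comparisons of the tissues, and with age in WT whole brains, no slide held arrays of both groups. The block by slide does not separate slide from group there. Signal over background limits all of this: 54 members stood at the floor on every array, and a change below it was not detectable.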
